A study of Homo sapiens with 16 samples.

Results

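The change in the transcriptome of A549 cells between 6 and 12 h of hepatocyte growth factor (HGF) was described from 4 of the 16 RNA-seq libraries of the study. These were the 2 libraries of cells expressing wt MET at 12 h of HGF and the 2 libraries of the same cells at 6 h, chosen by the sample labels alone. A549 is a lung cancer cell line, and the labels give its MET as wt. The other cells of the series, NCI-H596, are lung adenosquamous carcinoma cells that the labels list as MET delta 14 exon, which means that exon 14 is skipped from the receptor's mRNA. Each line was sequenced at 0, 3, 6 and 12 h of HGF, with 2 biological duplicates per time, from polyA RNA. All cells, those at 0 h included, had been deprived of serum for 12 h according to the labels, whereas the methods of the study give another duration. The text of the study describes EKVX cells and does not name A549, so the line is called here as the labels call it. Only the 0 h cells were without HGF, so a change with hours in serum-free medium and a change with HGF cannot be told apart, and each MET status is represented by a single line.

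MET is the receptor tyrosine kinase for HGF. Once bound, it signals through the RAS and ERK, PI3K and AKT, and STAT3 routes. The first transcriptional output of such a receptor is the immediate early genes, among them the EGR, FOS and JUN factors, whose mRNAs need no new protein synthesis and are short-lived. Their products switch on a later wave that includes feedback inhibitors, such as the dual specificity phosphatases and Sprouty proteins. Genes of mitosis form another well-known unit. They are transcribed in the late part of the cell cycle. The cell cycle genes homology region in their promoters is then released from repression by the DREAM complex. Genes of DNA replication are switched on earlier by E2F factors.

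The counts summed to 17707980 and 16106687 in the libraries at 6 h and to 21970052 and 15706162 at 12 h, within the range of 10158590 to 23909304 over the series. Of the 42351 genes in the table, 15067 passed the filter on low counts and were tested with edgeR's quasi-likelihood test over all 16 libraries. The 2 libraries at 6 h differed by a mean absolute log2 value of 0.0958 over genes, and the 2 libraries at 12 h by 0.102. The NCI-H596 libraries at 12 h stood apart from one another, with a mean absolute difference of 0.308, and they enter the estimate of the spread that all comparisons share. The label A549 was checked with CDKN2A and MTAP, which are deleted in this line. No library is labelled EKVX, so the check was against NCI-H596 only and cannot tell A549 from EKVX. CDKN2A had 0 counts in all A549 libraries, which allows at most 3 counts per library, against at least 1466 counts in NCI-H596, and MTAP had 13 to 23 counts in the 4 libraries against at least 883. The keratins KRT7, KRT8 and KRT18 were high and EPCAM and CDH1 low, with 17 to 25 and 42 to 57 counts. The summed level of 6 epithelial markers was 4020 to 4175 CPM at 6 h and 3153 to 3403 CPM at 12 h, without overlap. For comparison, the 2 groups did not overlap for 62.9% of all genes tested. The sum was nearly all KRT7, KRT8 and KRT18, which were each lower at 12 h. KRT19 was not lower, with 26.7 and 27.2 CPM at 6 h and 27.8 and 32.15 CPM at 12 h. The 6 and 12 h values of EPCAM and of CDH1 overlapped. Of 6 immune markers, 3 were at 0, PTPRC and CD3E among them, and the sum, which was nearly all ITGAM, was 9.01 to 10.1 CPM at 6 h and 5.78 to 6.57 CPM at 12 h. Endothelial markers summed to at most 0.673 CPM, and fibroblast markers, of which DCN was at 0, to 13.6 to 19.4 CPM, nearly all of it COL1A1 (187 to 291 counts). The part of these differences in the results was not tested.

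Of the 15067 genes, 1743 (11.6%) changed between 6 and 12 h at an adjusted p under 0.05. Of these, 842 (5.59%) were higher at 12 h and 901 (5.98%) were lower, and the change was at least 2-fold for 112 of the higher and 171 of the lower genes. The median absolute log2 fold change of the called genes was 0.565, that of all genes lay at 0, and the 2 groups of 2 libraries did not overlap for 62.9% of all genes tested. The number of calls changed with the libraries that were fitted. It was 2801 when the 8 A549 libraries were fitted alone, 3182 without NCI-H596 12 h replicate 1 and 3140 without replicate 2, and between 686 and 760 when 1 of the 4 compared libraries was left out. The p-values rest on a spread estimated from the duplicates of all 16 libraries, not of the 4 compared libraries alone. CPM are counts scaled to a common library size. Each log2 change below is edgeR's log2 fold change of the means of 2 libraries, 12 h over 6 h, with its standard error (SE). Every adjusted p comes from that edgeR fit and was corrected by the Benjamini-Hochberg method over all genes tested.

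Of the 10 largest falls, 9 were of genes that had risen between 0 and 3 h of HGF. By the size of the change, the 10 leading genes, taken among those whose log2 CPM averaged at least 3, were CYP1B1, FOSB, EGR2, EGR1, CYP24A1, NR4A3, SEMA7A, JUNB, NR4A1 and CLDN4. CYP1B1, a cytochrome P450 that oxidises oestrogens and aromatic hydrocarbons (ENSG00000138061, chr2:38066973-38109902, minus strand on hg38), is known from drug metabolism. It measured 247 and 227 CPM at 6 h and 24.4 and 22.9 CPM at 12 h. It fell from 6 to 12 h (log2 change -3.32, SE 0.14, adjusted p = 3.89e-09), after means of 30.1 CPM at 0 h and 452 CPM at 3 h. CYP24A1, the enzyme that inactivates vitamin D, measured 260.4 and 329 CPM at 6 h and 50.2 and 52.1 CPM at 12 h (log2 change -2.53, SE 0.24, adjusted p = 3.43e-05). Unlike the other 9, it was not called between 0 and 3 h (log2 change 0.40, SE 0.23, adjusted p = 0.266). SEMA7A, a membrane-anchored semaphorin, measured 23.4 and 29.7 CPM at 6 h and 5.34 and 4.71 CPM at 12 h, a 5.24-fold fall (log2 change -2.39, SE 0.16, adjusted p = 3.04e-07). CLDN4, a claudin of tight junctions, measured 26.6 and 48.2 CPM at 6 h and 8.19 and 8.68 CPM at 12 h, with the 6 h duplicates well apart and both above the 12 h values (log2 change -2.15, SE 0.24, adjusted p = 7.93e-05). Its call was lost when only the 4 libraries were fitted, while CYP1B1, FOSB, EGR2, EGR1, CYP24A1, NR4A3, SEMA7A, JUNB and NR4A1 were called in every alternative run.

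The largest rises were smaller than the largest falls, and all 10 leading genes had fallen between 0 and 3 h. They were DPYSL2, AMER1, AK4, PAX9, MOCOS, KLF11, LRIG3, THSD1, JAZF1 and DCAF4. DPYSL2, a microtubule-binding protein known from axon growth, measured 10.2 and 12.0 CPM at 6 h and 32.0 and 35.7 CPM at 12 h. It rose 3.03-fold (log2 change 1.60, SE 0.16, adjusted p = 1.51e-05), from a 0 h mean of 67.5 CPM that it did not regain. AMER1, a regulator of the beta-catenin destruction complex, measured 5.69 and 5.92 CPM at 6 h and 15.6 and 15.1 CPM at 12 h (log2 change 1.40, SE 0.17, adjusted p = 8.16e-05), against a mean of 16.5 CPM at 0 h. AK4, a mitochondrial adenylate kinase, measured 7.63 and 6.86 CPM at 6 h and 19.2 and 18.5 CPM at 12 h (log2 change 1.38, SE 0.10, adjusted p = 7.61e-07). KLF11, a Krüppel-like repressor induced by TGF-beta, measured 23.5 and 22.4 CPM at 6 h and 53.5 and 53.8 CPM at 12 h (log2 change 1.22, SE 0.10, adjusted p = 3.95e-06), and its 12 h level stood above the 0 h mean of 30.7 CPM. LRIG3, which belongs to a family of receptor tyrosine kinase inhibitors, rose by 1.19 on the log2 scale and MOCOS, which activates molybdenum enzymes, by 1.26. THSD1, JAZF1 and DCAF4 rose by 1.18, 1.17 and 1.13. PAX9 rose by 1.31, but 25.4% of its exonic bases overlap SLC25A21 on the other strand, and since strand use is not given, its value is uncertain.

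**Figure D1:**
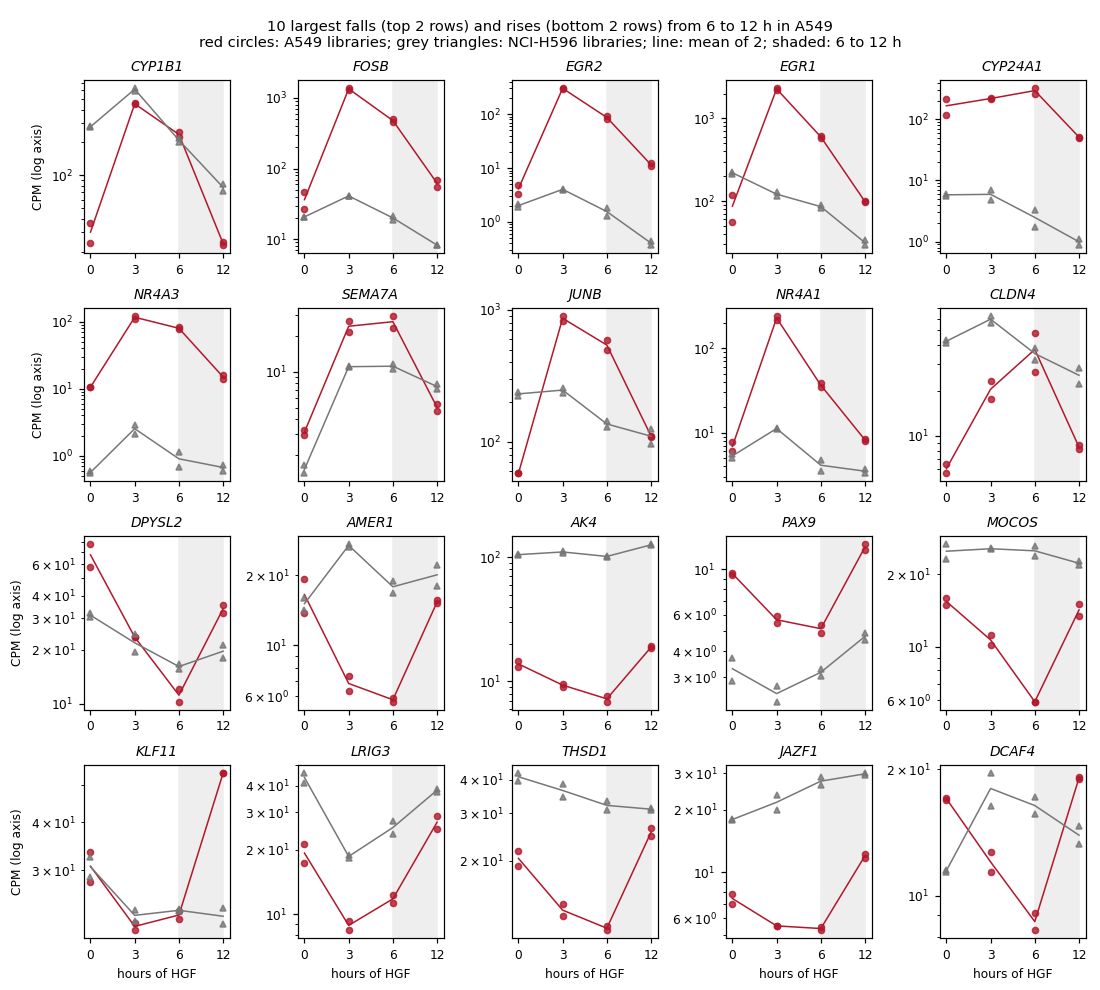
CPM on a log axis at 0, 3, 6 and 12 h of HGF for the 10 largest falls and the 10 largest rises from 6 to 12 h in A549. Each red circle is an A549 library and each grey triangle an NCI-H596 library, lines join the means of 2, and each panel has its own scale. In A549, FOSB, EGR1, EGR2, NR4A1 and JUNB peak at 3 h and come down from 6 to 12 h, while the rising genes dip at 3 and 6 h and are higher at 12 h.

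The relation to the early response was counted directly, since the comparison of 3 with 0 h and that of 12 with 6 h share no library. Both comparisons still use the same estimate of each gene's spread, so the 2 sets of calls are not independent. The part of this in the shares below was not tested. Between 0 and 3 h, 1550 genes (10.3% of all tested) rose and 1079 (7.16%) fell. Of the 1550 genes that rose, 414 (26.7%) fell from 6 to 12 h, against 5.98% of all genes tested, and 5 (0.323%) rose again, against 5.59%. Of the 1079 genes that fell, 354 (32.8%) rose from 6 to 12 h and 59 (5.47%) fell further. The other way round, the 414 genes were 45.95% of the genes lower at 12 h and the 354 were 42.04% of the genes higher at 12 h. The median over the 414 genes of the mean CPM was 49.1 at 0 h, 89.6 at 3 h, 95.2 at 6 h and 63.4 at 12 h. Over the 354 genes it was 26.6, 17.4, 15.6 and 26.3 CPM. Between 3 and 6 h, when fewer genes were called (3.1% of all tested), 217 rose (1.44%) and 250 fell (1.66%). The 414 became 745 with the A549 libraries fitted alone, 767 and 860 without NCI-H596 12 h replicate 1 or 2, and 226 to 270 without 1 of the A549 libraries at 6 or 12 h. The 354 became 621 without NCI-H596 12 h replicate 1, 140 to 165 without 1 of the A549 libraries at 6 or 12 h, and 206, 183 and 176 without A549 0 h replicate 1, 3 h replicate 1 and 3 h replicate 2.

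**Figure D2:**
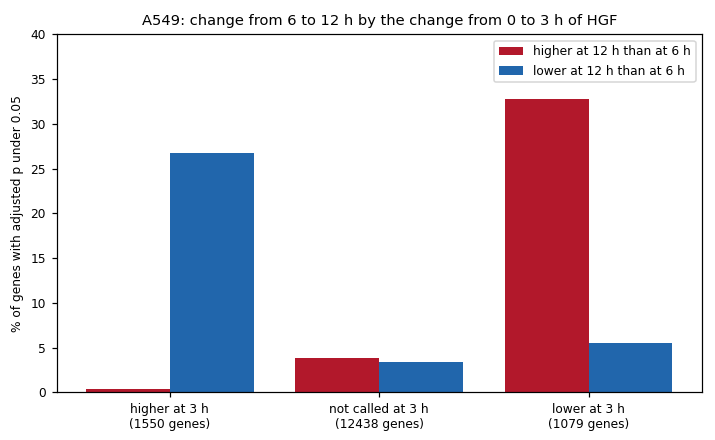
Percentage of A549 genes called higher (red) or lower (blue) at 12 h than at 6 h of HGF, for genes higher, not called or lower at 3 h against 0 h. Of the genes higher at 3 h, 26.7% were lower from 6 to 12 h and 0.323% higher, of the genes lower at 3 h, 5.47% were lower and 32.8% higher, and of the 12438 genes not called at 3 h, 3.44% were lower and 3.88% higher.

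Most immediate early transcription factors fell. Of 36 tested members, 27 fell from 6 to 12 h, 1 rose (ZFP36L2, log2 fold change 0.69) and 8 did not pass the test, with a median log2 fold change of -0.80, against 5.98% of all genes lower and a median of 0. The median over members of log2 CPM, taken relative to the 6 h mean, was -0.76 and -0.82 in the 2 libraries at 12 h. It was -0.91 and -0.94 at 0 h and 0.46 and 0.50 at 3 h, so that the 12 h libraries lay slightly above the 0 h ones. Since the list was drawn up with the early response of these cells known, its direction is a description.

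Of the immediate early groups, that of the EGR zinc finger factors, in which the EGR corepressors NAB1 and NAB2 were counted, had the lowest median (-2.74), with all 6 members lower. EGR1 (ENSG00000120738, chr5:138465479-138469303, plus strand) measured 55.9 and 118 CPM at 0 h and 2203 and 2362 CPM at 3 h and then 619 and 577 CPM at 6 h and 99.8 and 96.7 CPM at 12 h, and both 12 h values lay below both 6 h values. It fell 6.09-fold from 6 to 12 h (log2 change -2.61, SE 0.23, adjusted p = 1.67e-05). EGR2 measured 91.2 and 82.6 CPM at 6 h and 10.8 and 12.2 CPM at 12 h (log2 change -2.92, SE 0.12, adjusted p = 3.89e-09). EGR3 measured 14.6 and 17.2 CPM at 6 h and 1.86 and 2.56 CPM at 12 h (log2 change -2.87, SE 0.19, adjusted p = 3.65e-07), from a 3 h mean of 78.5 CPM. EGR4 measured 9.74 and 10.4 CPM at 6 h and 1.24 and 1.21 CPM at 12 h, a fall to a few CPM (log2 change -3.03, SE 0.33, adjusted p = 4.04e-05).

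The FOS and JUN products pair to form the AP-1 factor. All 8 genes of this group, in which their partner ATF3 was counted, fell, with a median of -0.93. FOSB measured 459 and 499 CPM at 6 h and 69.6 and 54.5 CPM at 12 h, a 7.70-fold fall (log2 change -2.94, SE 0.18, adjusted p = 3.04e-07). JUNB measured 495 and 587 CPM at 6 h and 112 and 109.9 CPM at 12 h (log2 change -2.29, SE 0.12, adjusted p = 2.62e-08). FOS measured 41.9 and 36.1 CPM at 6 h and 9.48 and 8.75 CPM at 12 h (log2 change -2.09, SE 0.14, adjusted p = 3.04e-07). JUN fell less, from 1729.8 and 1696 CPM at 6 h to 869 and 866 CPM at 12 h (log2 change -0.98, SE 0.09, adjusted p = 1.18e-05). FOSL1, the member known to be sustained by long ERK signalling, measured 2464 and 2484 CPM at 6 h and 1533 and 1553 CPM at 12 h (log2 change -0.68, SE 0.14, adjusted p = 0.00465). FOSL1 thus stayed above its 0 h mean of 1075 CPM at 12 h, whereas JUN, at a 0 h mean of 985 CPM, did not.

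Of the 22 other early factors, 13 fell and 1 rose. The orphan nuclear receptor NR4A1 measured 38.6 and 34.5 CPM at 6 h and 8.38 and 8.01 CPM at 12 h (log2 change -2.15, SE 0.13, adjusted p = 1.63e-07). NR4A3 measured 76.5 and 82.6 CPM at 6 h and 16.1 and 13.8 CPM at 12 h (log2 change -2.40, SE 0.12, adjusted p = 1.57e-08). ID3, an inhibitor of helix-loop-helix factors, fell from 38.5 and 38.8 CPM at 6 h to 15.7 and 14.6 CPM at 12 h (log2 change -1.35, SE 0.13, adjusted p = 1.62e-05), while its relative ID1 was not called (log2 change 0.60, SE 0.23, adjusted p = 0.109). IER3, an ERK-responsive survival gene, fell by 1.07 on the log2 scale, but 38.9% of its exonic bases overlap IER3-AS1 and HCG20. MYC was not called, with 592 and 619 CPM at 6 h and 622 and 599 CPM at 12 h (log2 change 0.01, SE 0.10, adjusted p = 0.981), and its 6 and 12 h values overlapped.

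The promoters of 2 of these genes are shown because the sequence bound by serum response factor, the CArG box, is the classic control element of immediate early genes. They are RefSeq windows on GRCh38.p14 from 250 bases before to 50 after the start, written 5′ to 3′ with the CArG box in capitals. The EGR1 window is chr5:138465229-138465528, plus strand, and the EGR2 window, which is 1 of several starts of that gene, is chr10:62816317-62816616, minus strand.
EGR1: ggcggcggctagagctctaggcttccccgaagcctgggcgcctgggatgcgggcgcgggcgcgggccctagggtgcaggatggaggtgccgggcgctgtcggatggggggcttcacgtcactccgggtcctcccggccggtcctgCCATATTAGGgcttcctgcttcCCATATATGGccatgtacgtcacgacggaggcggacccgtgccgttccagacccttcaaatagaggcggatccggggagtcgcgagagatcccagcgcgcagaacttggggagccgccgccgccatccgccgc
EGR2: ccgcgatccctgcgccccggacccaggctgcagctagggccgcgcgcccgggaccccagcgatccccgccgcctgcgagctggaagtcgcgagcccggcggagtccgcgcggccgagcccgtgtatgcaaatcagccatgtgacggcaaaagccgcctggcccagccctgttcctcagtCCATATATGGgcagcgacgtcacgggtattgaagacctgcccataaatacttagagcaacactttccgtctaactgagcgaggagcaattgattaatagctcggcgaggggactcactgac

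The EGR1 window held 2 CArG boxes and the EGR2 window 1. A CArG box stood in 8.11% of the 37 windows of 28 list members in the table, against 1.29% of all 35116 windows, and in 7.14% of the 28 windows of members that fell from 6 to 12 h. This motif was added after the values were known.

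Most genes of mitosis fell. Of 79 tested members, 54 fell, 1 rose (BUB3, log2 fold change 0.25) and 24 did not pass the test, with a median log2 fold change of -0.71. A negative value was found for 77 of the 79, against 7439 of the 15067 genes tested, of which 5.98% were called lower. The median over members of log2 CPM relative to the 6 h mean was 0.06 and -0.06 in the 6 h libraries and -0.65 and -0.75 in the 12 h libraries. It had been 0.77 and 0.83 at 0 h and 0.47 and 0.51 at 3 h, so the level came down over each interval and, unlike that of the immediate early factors, did not pass through a peak. In RNA from whole cultures, fewer cells in mitosis and less of these mRNAs per cell cannot be told apart.

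Among the 15 entry kinases and cyclins, 10 fell. CDK1, the kinase that drives entry into mitosis, measured 30.6 and 30.7 CPM at 6 h and 15.6 and 12.9 CPM at 12 h (log2 change -1.09, SE 0.12, adjusted p = 4.36e-05). Its partner CCNA2 measured 4.06 and 3.97 CPM at 6 h and 1.81 and 1.21 CPM at 12 h (log2 change -1.37, SE 0.24, adjusted p = 0.00178). CCNB1, with 31.6 and 27.5 CPM at 6 h and 20.9 and 23.5 CPM at 12 h, did not pass the test (log2 change -0.42, SE 0.14, adjusted p = 0.0659). AURKA, a centrosomal kinase, fell from 38.5 and 35.9 CPM at 6 h to 19.3 and 20.5 CPM at 12 h (log2 change -0.90, SE 0.11, adjusted p = 7.34e-05). PLK1 was not called, with 6 h duplicates of 6.96 and 4.31 CPM (log2 change -0.57, SE 0.20, adjusted p = 0.0785). FOXM1, the factor that activates many of these genes, had a smaller fall (log2 change -0.53, SE 0.14, adjusted p = 0.0236), and this call was lost in each fit that left out 1 of the 4 libraries (highest adjusted p = 0.154).

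Genes of the spindle and the chromosomes fell to differing shares. Of the 9 spindle checkpoint genes 7 fell and 1 rose. BUB1, a checkpoint kinase, measured 31.9 and 25.3 CPM at 6 h and 14.2 and 13.1 CPM at 12 h (log2 change -1.07, SE 0.12, adjusted p = 4.76e-05). Of 16 kinetochore and centromere genes, 5 passed the test, all lower. NUF2 and NDC80, which form the outer kinetochore complex that grips microtubules, fell the most among the named members. NUF2 fell from 5.87 and 4.44 CPM at 6 h to 1.72 and 1.35 CPM at 12 h (log2 change -1.73, SE 0.22, adjusted p = 1.08e-04). NDC80 fell from 3.75 and 3.30 CPM at 6 h to 1.29 and 0.875 CPM at 12 h (log2 change -1.66, SE 0.22, adjusted p = 1.90e-04). The large kinetochore proteins CENPE and CENPF had log2 fold changes of -0.71 and -0.57 and were not called (adjusted p = 0.087 and 0.0529). Of 20 motors and spindle genes, 17 fell, among them KIF11, the motor that separates the spindle poles (log2 change -0.61, SE 0.10, adjusted p = 0.00121), and KIF18B (log2 change -1.46, SE 0.23, adjusted p = 9.25e-04).

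Of 19 genes of mitotic exit, cytokinesis and condensation, 15 fell. CDC20, the activator of the anaphase-promoting complex, measured 6.96 and 6.46 CPM at 6 h and 3.05 and 2.56 CPM at 12 h (log2 change -1.24, SE 0.21, adjusted p = 0.00124). TOP2A, the topoisomerase that disentangles chromosomes, measured 117 and 103 CPM at 6 h and 54.5 and 53.2 CPM at 12 h (log2 change -1.03, SE 0.08, adjusted p = 2.33e-06), and its 4 values at 0 and 3 h were higher still, with means of 207 CPM at 0 h and 158 CPM at 3 h. MKI67, the proliferation marker Ki-67, measured 39.2 and 33.6 CPM at 6 h and 14.7 and 15.1 CPM at 12 h (log2 change -1.29, SE 0.21, adjusted p = 0.00128). BIRC5, survivin, measured 27.8 and 24.2 CPM at 6 h and 11.1 and 12.2 CPM at 12 h (log2 change -1.16, SE 0.16, adjusted p = 1.89e-04). The count of 54 was 36 to 65 when any 1 library was left out. KIF20A and TTK, kinesin and checkpoint kinase, were called with log2 fold changes of -0.97 and -0.61, but not in 2 of the fits without 1 of the 4 libraries (highest adjusted p = 0.233 and 0.103).

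The promoters of 3 falling mitosis genes that hold both control elements are shown. Windows covered 43 of the 54 falling members, so the 3 are examples and not a ranking over all of them. Capitals mark TTTGAA, the core of the cell cycle genes homology region, and CCAAT, the NF-Y box, read on either strand. On the other strand the first is written TTCAAA, and the NF-Y box is written ATTGG. The windows are chr17:44947724-44948023, minus strand, for KIF18B, a motor of microtubule ends, chr6:33391573-33391872, plus strand, for KIFC1, a minus-end motor, and chr12:53268049-53268348, plus strand, for ESPL1, separase.
KIF18B: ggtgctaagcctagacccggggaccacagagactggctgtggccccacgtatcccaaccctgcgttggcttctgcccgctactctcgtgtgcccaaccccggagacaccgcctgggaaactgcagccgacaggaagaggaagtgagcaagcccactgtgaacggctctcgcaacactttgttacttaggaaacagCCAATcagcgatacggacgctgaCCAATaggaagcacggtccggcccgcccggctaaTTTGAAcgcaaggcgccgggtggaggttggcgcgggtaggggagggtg
KIFC1: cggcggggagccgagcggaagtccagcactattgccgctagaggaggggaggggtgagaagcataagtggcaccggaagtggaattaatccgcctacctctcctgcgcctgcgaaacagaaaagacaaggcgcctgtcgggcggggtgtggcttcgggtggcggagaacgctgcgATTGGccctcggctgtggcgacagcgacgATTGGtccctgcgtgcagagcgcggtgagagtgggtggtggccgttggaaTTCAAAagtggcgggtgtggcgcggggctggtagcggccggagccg
ESPL1: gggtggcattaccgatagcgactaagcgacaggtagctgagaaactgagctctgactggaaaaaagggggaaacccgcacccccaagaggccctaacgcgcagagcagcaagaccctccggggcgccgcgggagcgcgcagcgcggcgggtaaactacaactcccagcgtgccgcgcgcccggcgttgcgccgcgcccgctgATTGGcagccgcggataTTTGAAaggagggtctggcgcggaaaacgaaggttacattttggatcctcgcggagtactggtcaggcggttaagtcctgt

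TTTGAA stood in 58.8% of the 80 windows of 65 list members, against 15.2% of all 35116 windows. CCAAT stood in 70%, against 34.6%, and both in 46.2%, against 5.9%. Over the 52 windows of members that fell from 6 to 12 h, the shares were 67.3%, 73.1% and 51.9%. For each of these genes a letter match describes the window and no binding was measured.

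Genes of DNA replication and S phase had fewer calls and smaller values. Of 62 tested members, 18 fell and 1 rose, with a median of -0.34, against 5.98% and 5.59% of all genes. The per-library medians relative to 6 h were -0.32 and -0.35 at 12 h. RRM2, the small subunit of ribonucleotide reductase, measured 12.3 and 10.4 CPM at 6 h and 4.81 and 5.11 CPM at 12 h (log2 change -1.20, SE 0.16, adjusted p = 1.81e-04). CDC45, part of the replicative helicase, had 1.09 and 1.68 CPM at 6 h and 0.429 and 0.471 CPM at 12 h (log2 change -1.60, SE 0.30, adjusted p = 0.00294). ASF1B, a histone chaperone, had 3.39 and 3.23 CPM at 6 h and 1.81 and 0.942 CPM at 12 h (log2 change -1.20, SE 0.27, adjusted p = 0.0093). Both of these calls, and that of FANCD2, which repairs crosslinks (log2 change -1.20, SE 0.28, adjusted p = 0.0107), were lost in 2 fits without 1 of the 4 libraries (highest adjusted p = 0.111, 0.0845 and 0.159). The licensing factor CDC6 was not called (log2 change -0.36, SE 0.15, adjusted p = 0.162), and PCNA, the sliding clamp, had 158 and 158 CPM at 6 h and 189.9 and 188 CPM at 12 h (log2 change 0.26, SE 0.09, adjusted p = 0.0826). The count of 18 was 11 without either A549 library at 6 h, 10 and 11 without A549 12 h replicate 1 or 2, and 25 and 27 without NCI-H596 12 h replicate 1 or 2.

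For these genes the letters of E2F sites were sought on either strand. The forms were TTGGCGC in the first place, TTCGCGC in the next, TTCCCGC after it and lastly TTGCCGC. The first form is written GCGCCAA on the other strand, and the third is written GCGGGAA. They stood in 64.4% of the 73 windows of 51 members, against 31.2% of the mitosis windows and 13% of all windows. Among the members that fell from 6 to 12 h the share was 47.6% of 21 windows. TTTGAA stood in 5.48% of the replication windows. The windows of RAD51AP1, a recombination factor that fell by 1.23 on the log2 scale (chr12:4538640-4538939, plus strand), and RRM2 (chr2:10122318-10122617, plus strand) are shown with these letters in capitals.
RAD51AP1: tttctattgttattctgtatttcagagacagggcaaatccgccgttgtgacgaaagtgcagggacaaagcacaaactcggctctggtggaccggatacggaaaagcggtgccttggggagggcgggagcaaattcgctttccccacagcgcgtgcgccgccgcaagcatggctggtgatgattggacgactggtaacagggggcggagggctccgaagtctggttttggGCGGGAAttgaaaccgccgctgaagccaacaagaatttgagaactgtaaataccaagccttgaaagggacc
RRM2: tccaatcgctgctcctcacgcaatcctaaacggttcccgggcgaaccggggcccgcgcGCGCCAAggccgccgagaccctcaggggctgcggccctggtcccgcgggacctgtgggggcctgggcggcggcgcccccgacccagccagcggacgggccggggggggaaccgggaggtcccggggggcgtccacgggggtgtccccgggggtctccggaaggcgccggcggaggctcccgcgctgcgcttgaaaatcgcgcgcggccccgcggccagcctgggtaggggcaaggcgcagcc

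Among genes that act before S phase the calls were rises. Of 26 G1 cyclins, E2F factors and CDK inhibitors, 4 rose and none passed the test as lower by edgeR, although 2 had an unadjusted p under 0.05 and E2F1, at 0.726 and 1.14 CPM at 6 h and 0.286 and 0.336 CPM at 12 h, had a log2 fold change of -1.57 (adjusted p = 0.0548). DESeq2 and DESeq2's size factors in edgeR each called 1 lower, against 5.98% of all genes lower and 5.59% higher. The 4 rises were 1 to 4 without any 1 library. CCNE1, the cyclin of the G1 to S transition, rose from 2.66 and 1.88 CPM at 6 h to 4.67 and 4.24 CPM at 12 h (log2 change 0.96, SE 0.18, adjusted p = 0.00258). CDKN1B, which encodes the inhibitor p27, rose from 64.6 and 69.9 CPM at 6 h to 90.1 and 90.1 CPM at 12 h (log2 change 0.42, SE 0.08, adjusted p = 0.00427). The highest adjusted p without 1 of the 4 libraries was 0.0593 for CCNE1 and 0.1 for CDKN1B. CCND1, with 282 and 290.4 CPM at 6 h and 260.4 and 271 CPM at 12 h, and CDKN1A, which encodes p21, with 1377 and 1395 CPM at 6 h and 1406 and 1319.8 CPM at 12 h, were not called (log2 fold change -0.11 and -0.02, adjusted p = 0.578 and 0.962).

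Feedback regulators of ERK were split. Of 34 tested members, 9 fell and 6 rose, with a median of -0.15, against 5.98% and 5.59% of all genes. Without any 1 library these counts were 7 to 15 and 2 to 7. Among 10 dual specificity phosphatases, which remove phosphate from MAP kinases, DUSP8 fell from 95.4 and 93.3 CPM at 6 h to 49.9 and 45.3 CPM at 12 h (log2 change -0.98, SE 0.13, adjusted p = 1.53e-04), while DUSP4 rose (log2 change 0.45, SE 0.12, adjusted p = 0.0205), a call that was lost in each fit without 1 of the 4 libraries (highest adjusted p = 0.169). The ERK-specific DUSP6, with 97.6 and 96.9 CPM at 6 h and 112 and 108 CPM at 12 h, was not called (log2 change 0.18, SE 0.08, adjusted p = 0.203), and 28.6% of its exonic bases overlap another gene. The Sprouty genes moved apart. SPRY2 fell from 172 and 177 CPM at 6 h to 119 and 119 CPM at 12 h (log2 change -0.55, SE 0.10, adjusted p = 0.0033). SPRY1 rose from 2.42 and 1.35 CPM at 6 h to 5.72 and 6.26 CPM at 12 h (log2 change 1.65, SE 0.27, adjusted p = 0.00108), while SPRY4 was not called (log2 change -0.29, SE 0.13, adjusted p = 0.16). Of the ligands in this list, HBEGF, which activates the EGF receptor, fell from 25.4 and 25.4 CPM at 6 h to 15.9 and 15.5 CPM at 12 h (log2 change -0.69, SE 0.13, adjusted p = 0.00321). IL11, a cytokine that signals through STAT3, fell 2.52-fold from 1913 and 2337 CPM at 6 h to 841 and 842 CPM at 12 h (log2 change -1.34, SE 0.13, adjusted p = 1.16e-05).

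No change was detected in the receptor itself. MET measured 1481 and 1529.5 CPM at 6 h and 1539 and 1485 CPM at 12 h, with overlapping groups (log2 change 0.01, SE 0.09, adjusted p = 0.993). Of 26 tested receptor and adaptor genes, 4 rose and 1 fell, 1 to 4 and 0 to 6 without any 1 library. Over all genes tested, 5.59% rose and 5.98% fell. INSR, the insulin receptor, rose from 7.63 and 7.67 CPM at 6 h to 12.4 and 13.5 CPM at 12 h (log2 change 0.76, SE 0.13, adjusted p = 0.00172). EGFR had 1019 and 1012 CPM at 6 h and 1146 and 1117 CPM at 12 h (log2 change 0.16, SE 0.14, adjusted p = 0.536). AXL had 1431 and 1472 CPM at 6 h and 1179 and 1229 CPM at 12 h (log2 change -0.27, SE 0.09, adjusted p = 0.0825). Neither passed the test.

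Genes that PI3K and AKT signalling hold down through FOXO factors, and nutrient-repressed genes, rose in 10 of 31 tested cases and fell in 2, with a median of 0.14. The shares over all genes tested were 5.59% higher and 5.98% lower. The 10 rises were 4 to 11 without any 1 library. TXNIP, an arrestin-like inhibitor of glucose uptake, rose from 13.0 and 14.4 CPM at 6 h to 24.2 and 34.7 CPM at 12 h (log2 change 1.10, SE 0.18, adjusted p = 0.00141). PDK4, which shuts off pyruvate oxidation, measured 3.81 and 4.24 CPM at 6 h and 8.43 and 8.81 CPM at 12 h (log2 change 1.10, SE 0.30, adjusted p = 0.0254). BCL2L11, the pro-apoptotic BIM, measured 13.9 and 13.7 CPM at 6 h and 20.4 and 21.3 CPM at 12 h (log2 change 0.60, SE 0.13, adjusted p = 0.0068). The highest adjusted p without 1 of the 4 libraries was 0.186 for PDK4 and 0.0731 for BCL2L11. PIK3IP1, a PI3K inhibitor, went the other way (log2 change -1.12, SE 0.22, adjusted p = 0.00437). FOXO3 itself was not called (log2 change -0.08, SE 0.09, adjusted p = 0.648).

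The NF-kappaB response fell in 10 of 31 tested members and rose in 2, with a median of -0.41, against 5.98% and 5.59% of all genes. The 10 falls were 5 to 12 without any 1 library. TNFAIP3, a ubiquitin-editing enzyme that ends the response, measured 126 and 104 CPM at 6 h and 57.9 and 50.3 CPM at 12 h (log2 change -1.08, SE 0.18, adjusted p = 0.00133). NFKBIA, the inhibitor that holds NF-kappaB in the cytoplasm, measured 119 and 100.3 CPM at 6 h and 68.6 and 64.0 CPM at 12 h (log2 change -0.72, SE 0.14, adjusted p = 0.00304). The chemokine CXCL8 fell from 151 and 125 CPM at 6 h to 65.3 and 69.1 CPM at 12 h (log2 change -1.03, SE 0.21, adjusted p = 0.00646), a call lost in 2 fits without 1 of the 4 libraries (highest adjusted p = 0.0679), and IL6 had at most 0.269 CPM in the 4 libraries. MCL1, a survival member of the BCL2 family, fell from 1774 and 1735 CPM at 6 h to 1194 and 1196 CPM at 12 h (log2 change -0.55, SE 0.09, adjusted p = 0.00149).

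Genes of extracellular proteolysis were lower or not called. Of 29 tested proteases and inhibitors, 10 fell (4 to 11 without any 1 library) and none rose by edgeR or DESeq2, nor at an unadjusted p under 0.05. Over all genes tested, 5.98% were lower and 5.59% higher. Each fallen gene named here had its 12 h values below its 6 h values, and the 2 groups did not overlap for 62.9% of all genes tested. TIMP3, a metalloproteinase inhibitor bound to the matrix, measured 13.7 and 25.9 CPM at 6 h and 2.29 and 2.69 CPM at 12 h, a 7.97-fold fall (log2 change -3.00, SE 0.33, adjusted p = 8.22e-05). Of the urokinase system, which activates plasmin at the cell surface, PLAUR, the receptor, fell from 237 and 243 CPM at 6 h to 183 and 172 CPM at 12 h (log2 change -0.44, SE 0.08, adjusted p = 0.0016). PLAU, the protease, fell by 0.64 on the log2 scale, though 31% of its exonic bases overlap C10orf55. MMP7, matrilysin, fell from 9.14 and 9.83 CPM at 6 h to 4.43 and 4.98 CPM at 12 h (log2 change -1.02, SE 0.22, adjusted p = 0.00722), with a highest adjusted p of 0.0817 without 1 of the 4 libraries, and MMP1 and MMP14 were not called (0.94 and 0.34, adjusted p = 0.365 and 0.418).

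Of 78 tested adhesion and matrix genes, 19 fell and 6 rose, with a median of -0.16, against 5.98% and 5.59% of all genes. Without any 1 library these counts were 8 to 24 and 2 to 10. SNAI2, the mesenchymal repressor Slug, fell 3.64-fold from 13.6 and 17.8 CPM at 6 h to 4.29 and 4.31 CPM at 12 h (log2 change -1.86, SE 0.15, adjusted p = 2.55e-06), after a 0 h mean of 1.33 CPM. ITGA5, the fibronectin receptor subunit, fell from 93.7 and 103 CPM at 6 h to 71.1 and 66.5 CPM at 12 h (log2 change -0.51, SE 0.09, adjusted p = 0.00153), and ZEB1, another mesenchymal repressor, by 0.48 on the log2 scale (adjusted p = 0.0137, and at most 0.0763 without 1 of the 4 libraries, where it was lost each time). VIM and CDH1, the usual marks of the mesenchymal and the epithelial state, had values of 0.07 and 0.04 and were not called (adjusted p = 0.71 and 0.979), and VIM overlaps VIM-AS1 over 24.6% of its exonic bases.

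The TGF-beta and BMP list, which shares ID1 and ID3 with the early factors, fell in 11 of 28 tested members (7 to 14 without any 1 library) and rose in 3. Over all genes tested, 5.98% fell and 5.59% rose. SKIL and SMAD7, inhibitors of SMAD signalling that TGF-beta induces, both fell. SKIL fell from 309 and 366 CPM at 6 h to 169 and 150.0 CPM at 12 h (log2 change -1.08, SE 0.12, adjusted p = 4.40e-05). SMAD7 fell from 81.9 and 94.8 CPM at 6 h to 48.2 and 42.7 CPM at 12 h (log2 change -0.96, SE 0.11, adjusted p = 4.80e-05). INHBA, the activin A subunit, fell from 33.0 and 38.4 CPM at 6 h to 20.1 and 19.7 CPM at 12 h (log2 change -0.84, SE 0.14, adjusted p = 0.00136).

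Metabolic genes changed in part, against 5.98% of all genes lower and 5.59% higher. Of 36 glycolysis and hypoxia genes, 6 fell (4 to 9 without any 1 library) and 1 rose. PFKFB3, which makes the activator of phosphofructokinase, fell 2.85-fold from 553 and 607 CPM at 6 h to 216 and 191 CPM at 12 h (log2 change -1.51, SE 0.11, adjusted p = 1.18e-06). The glucose transporter SLC2A1 fell from 187 and 194 CPM at 6 h to 116 and 115 CPM at 12 h (log2 change -0.72, SE 0.08, adjusted p = 6.25e-05). ANGPTL4, an inhibitor of lipoprotein lipase, measured 42.1 and 54.4 CPM at 6 h and 17.2 and 15.7 CPM at 12 h (log2 change -1.55, SE 0.16, adjusted p = 3.28e-05). LDHA, which makes lactate, had 619 and 604 CPM at 6 h and 601 and 602 CPM at 12 h (log2 change -0.02, SE 0.09, adjusted p = 0.929). Of 34 NRF2 targets, 9 fell (4 to 15 without any 1 library) and 1 rose. AKR1B10, an aldo-keto reductase, fell from 268 and 308 CPM at 6 h to 74.0 and 103 CPM at 12 h (log2 change -1.71, SE 0.22, adjusted p = 2.93e-04). The standard targets NQO1 and TXNRD1 were not called (-0.23 and 0.15, adjusted p = 0.291 and 0.31). Of 44 cholesterol and lipid genes, 8 rose and 6 fell, each 2 to 8 without any 1 library. ELOVL6, an enzyme of fatty acid synthesis, rose from 12.0 and 9.29 CPM at 6 h to 19.2 and 22.7 CPM at 12 h (log2 change 0.96, SE 0.13, adjusted p = 2.77e-04).

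Among genes of protein synthesis and stress, calls in most lists were more often rises than falls, against 5.59% of all genes higher and 5.98% lower. Of 43 members of the integrated stress response, 8 rose (3 to 15 without any 1 library) and 1 fell (DDIT3, log2 fold change -0.43, adjusted p at most 0.156 without 1 of the 4 libraries). PSAT1, of serine synthesis, rose from 105 and 101 CPM at 6 h to 166 and 172 CPM at 12 h (log2 change 0.72, SE 0.10, adjusted p = 1.81e-04). CHAC1, a glutathione-degrading target of ATF4, rose from 13.9 and 14.0 CPM at 6 h to 27.9 and 26.7 CPM at 12 h (log2 change 0.97, SE 0.18, adjusted p = 0.00259), while ATF4 was not called (log2 change -0.10, SE 0.09, adjusted p = 0.564). Of 28 endoplasmic reticulum genes, 4 rose and 1 fell, 1 to 5 and 0 to 2 without any 1 library, the largest of the rises being that of DNAJB9, a co-chaperone (log2 change 0.77, SE 0.14, adjusted p = 0.00212). Of 38 ribosome biogenesis genes, 4 rose and 2 fell, 0 to 10 and 0 to 4 without any 1 library. None of the 72 cytosolic ribosomal protein genes was called by edgeR, with a median of 0.06, whereas 1 had an unadjusted p under 0.05 and 1 was called lower by DESeq2. Without any 1 library, 0 to 5 of them were lower and 0 or 1 higher, the 5 in the fits without an NCI-H596 library at 12 h. Of 30 p53 targets, 5 rose (2 to 9 without any 1 library) and 2 fell. ZMAT3, an RNA-binding p53 target, rose from 91.5 and 91.1 CPM at 6 h to 167 and 148 CPM at 12 h (log2 change 0.79, SE 0.10, adjusted p = 9.14e-05). TP53INP1, an autophagy and death regulator, rose from 99.0 and 101 CPM at 6 h to 173 and 154 CPM at 12 h (log2 change 0.71, SE 0.09, adjusted p = 1.36e-04).

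The remaining lists had at most 10 calls each, against 11.6% of all genes called. The called share was above that in the SRF, YAP and actin genes, the clock genes, the BCL2 family and the lineage genes, and below it in the interferon-stimulated and the acute phase and coagulation genes. Without any 1 library no count of calls in this paragraph was above 6 and the lowest was 0. The exception was the falls of SRF, YAP and actin genes, which were 2 to 13. Of 54 interferon-stimulated genes, 2 rose and 1 fell, and of 24 acute phase and coagulation genes, 2 fell, with F3, tissue factor, at 7.26 and 7.34 CPM at 6 h and 3.76 and 3.90 CPM at 12 h (log2 change -0.93, SE 0.18, adjusted p = 0.0041). Of 33 SRF, YAP and actin genes, 3 rose and 4 fell. WWTR1, the YAP relative TAZ, rose from 93.6 and 89.3 CPM at 6 h to 138 and 144 CPM at 12 h (log2 change 0.63, SE 0.07, adjusted p = 6.99e-05). Of 18 clock genes, 2 rose and 3 fell, among them PER1, a clock repressor that growth factors induce, from 516 and 459 CPM at 6 h to 299 and 259.7 CPM at 12 h (log2 change -0.80, SE 0.13, adjusted p = 8.09e-04). Of 15 BCL2 family genes, 2 rose and 2 fell. Of 26 lineage genes, 5 rose and 5 fell, with a median log2 fold change of 0.42 and a positive value for 18. FOXA1 and FOXA2 were among the rises (log2 change 0.73 and 0.48, adjusted p = 0.0181 and 0.00598). Without 1 of the 4 libraries these changes were 0.604 to 0.803 and 0.408 to 0.499. SOX4 fell from 93.0 and 113 CPM at 6 h to 69.9 and 68.3 CPM at 12 h (log2 change -0.58, SE 0.10, adjusted p = 0.00217). MUC5AC, a secreted mucin, fell from 1016 and 1042 CPM at 6 h to 412 and 569 CPM at 12 h (log2 change -1.07, SE 0.16, adjusted p = 0.00104), a call lost with only the 4 libraries. TBP and 18S were the reference genes of the study's qPCR. TBP was lower at 12 h (18.5 and 19.0 CPM at 6 h and 13.5 and 14.6 CPM at 12 h, log2 change -0.42, SE 0.12, adjusted p = 0.0302). This call was lost in each fit without 1 of the 4 libraries, where the log2 change was -0.495 to -0.392.

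**Figure D3:**
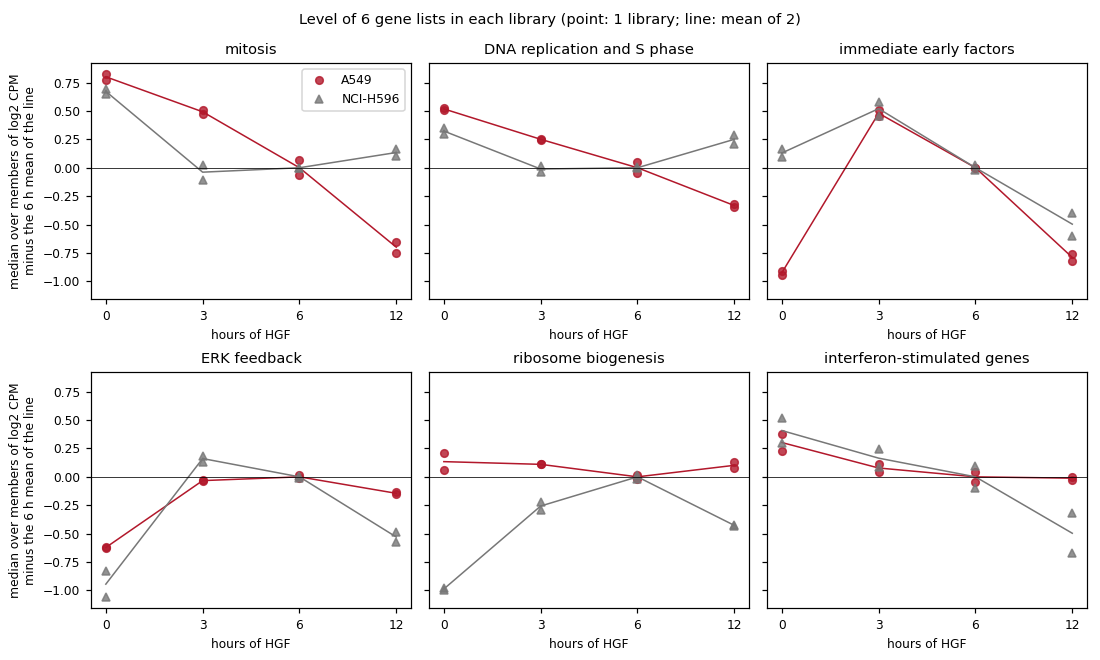
Median over the members of 6 gene lists of log2 CPM minus the gene's mean at 6 h in the same line, for each library (points; red, A549; grey, NCI-H596) at 0, 3, 6 and 12 h of HGF, with lines through the means of 2. In A549 the mitosis points fall at each time and reach -0.65 and -0.75 at 12 h. In NCI-H596 they stand at 0.65 and 0.69 at 0 h, -0.10 and 0.03 at 3 h and 0.17 and 0.10 at 12 h.

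The same interval in NCI-H596 showed which of these changes were shared. There 2806 genes changed (18.6%), 1250 higher (8.3%) and 1556 lower (10.3%), and the change differed between the lines for 1865 genes (12.4%), in a test of the difference itself. The 2806 were 1662 and 6434 without NCI-H596 12 h replicate 1 or 2 and 1438 and 852 without NCI-H596 6 h replicate 1 or 2. The 1865 were 5145 without NCI-H596 12 h replicate 2, 1126 and 902 without NCI-H596 6 h replicate 1 or 2, and 884 to 965 without 1 of the 4 A549 libraries. The difference was higher in A549 for 1071 genes (7.11%) and lower for 794 (5.27%). Of the 842 genes that rose in A549, 140 (16.6%) also rose in NCI-H596, against 8.3% of all genes, and 126 (14.96%) fell there, against 10.3%. Of the 901 that fell in A549, 193 (21.4%) also fell in NCI-H596, against 10.3%, and 70 (7.77%) rose, against 8.3%. As shares of the NCI-H596 lists, the 140 and 126 were 11.2% and 8.1% of the 1250 and 1556 genes, and the 193 and 70 were 12.4% and 5.6%.

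From 6 to 12 h the mitosis genes moved differently in the other line, where their level had come down earlier. Their per-library medians in NCI-H596, relative to 6 h, were 0.65 and 0.69 at 0 h and -0.10 and 0.03 at 3 h. Both 12 h values, 0.17 and 0.10, lay below those at 0 h. Replication genes there had 0.295 and 0.351 at 0 h and -0.035 and 0.012 at 3 h. In NCI-H596, 17 of the 79 mitosis genes rose and 5 fell, with a median of 0.15, and the difference between the lines was called for 59, lower in A549 for 58. TOP2A had 146 and 145 CPM at 6 h and 177 and 172 CPM at 12 h in NCI-H596, where it rose by 0.26 on the log2 scale (adjusted p = 0.0327), and the lines differed (log2 difference -1.29, SE 0.11, adjusted p = 2.60e-05). NUF2 had 16.2 and 12.8 CPM at 6 h and 16.7 and 16.9 CPM at 12 h in NCI-H596, not called there (log2 difference -1.95, SE 0.26, adjusted p = 2.85e-04 for the difference), and KIF18B had 21.6 and 21.6 CPM at 6 h and 36.5 and 23.9 CPM at 12 h (log2 difference -1.96, SE 0.28, adjusted p = 5.02e-04). CDC20 fell in both lines, by 0.38 in NCI-H596 (adjusted p = 0.036). The 17 rises in NCI-H596 were 6 and 31 without NCI-H596 12 h replicate 1 or 2 and 3 to 31 without any 1 library, while the 58 differences were 40 to 61. Replication genes rose in 18 of 62 cases in NCI-H596 (4 to 28 without any 1 library) and fell in none by edgeR or DESeq2 (2 at an unadjusted p under 0.05), and 29 differed between the lines, 28 of them lower in A549 (18 to 38 without any 1 library).

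**Figure D4:**
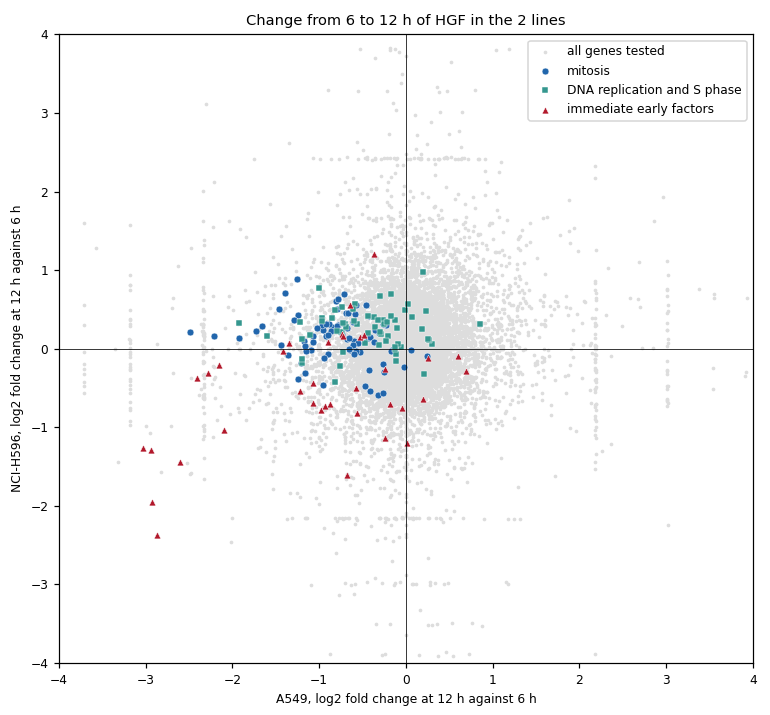
Log2 fold change from 6 to 12 h of HGF in A549 (horizontal axis) and NCI-H596 (vertical axis) for all genes tested (light grey), with mitosis genes as blue circles, replication genes as teal squares and immediate early factors as red triangles. Of the 79 mitosis genes 77 lie left of 0, most of them above 0 on the vertical axis, and immediate early factors lie mostly in the lower left. Of all genes, 99 fall outside the axes, which end at 4 on the log2 scale. Stripes are genes with counts near 0 in a group.

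The immediate early factors fell in NCI-H596 too, in 18 of 36 cases with 2 rises and a median of -0.52, but 24 of them differed between the lines, 16 lower in A549. The 18 falls were 14 to 19 without any 1 library. JUNB had 129.6 and 144 CPM at 6 h and 96.6 and 125 CPM at 12 h there, where it was not called (log2 change -0.31, SE 0.12, adjusted p = 0.0736), and the lines differed (log2 difference -1.97, SE 0.16, adjusted p = 1.47e-05). FOSB fell in both lines and more in A549 (log2 difference -1.66, SE 0.28, adjusted p = 0.00203). JUN and EGR2 fell in both, with no difference called (log2 difference -0.20, SE 0.13, adjusted p = 0.359 for JUN and log2 difference -0.97, SE 0.47, adjusted p = 0.197 for EGR2). MYC fell in NCI-H596, from 164 and 169 CPM at 6 h to 71.2 and 74.8 CPM at 12 h (log2 change -1.19, SE 0.11, adjusted p = 9.63e-06), and differed (log2 difference 1.20, SE 0.15, adjusted p = 1.66e-04). FOSL1 fell more in NCI-H596 (log2 difference 0.92, SE 0.20, adjusted p = 0.00699).

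Among ERK feedback genes NCI-H596 had 18 falls and 3 rises, and 17 differed, 14 of them higher in A549 (8 to 17 without any 1 library). DUSP6 was among them, with 78.1 and 74.9 CPM at 6 h and 25.2 and 29.9 CPM at 12 h in NCI-H596 (log2 difference 1.66, SE 0.12, adjusted p = 4.96e-06), and DUSP5 as well (log2 difference 1.60, SE 0.15, adjusted p = 2.60e-05). The integrated stress response fell in 24 of 43 cases in NCI-H596 and rose in none by edgeR (1 by DESeq2 and 1 at an unadjusted p under 0.05), and 21 members differed, all higher in A549. The 24 and 21 were 13 to 29 and 12 to 30 without any 1 library. Ribosome biogenesis likewise fell in 27 of 38 cases, and 21 differed, all higher in A549, counts that were 15 to 31 and 11 to 28 without any 1 library. For PSAT1 the lines moved in opposite directions (log2 difference 1.22, SE 0.14, adjusted p = 7.95e-05). NRF2 targets fell in 25 of 34 cases and interferon-stimulated genes in 28 of 54, against 9 and 1 in A549, with 10 and 8 differences called, 9 and 7 of them higher in A549. Over all genes tested, 10.3% fell in NCI-H596 and 12.4% differed between the lines, with 7.11% higher in A549. For the interferon-stimulated genes the share that differed was close to that over all genes. The 25 and 28 were 10 to 28 and 12 to 43 without any 1 library, and the 9 and 7 were 5 to 16 and 3 to 14. The interferon-stimulated genes were low in A549, with a median at 6 h of 2.05 CPM over the members, against 139 CPM in NCI-H596.

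By size, the largest negative differences (log2 CPM averaging at least 3 in both lines) were those of PHLDB1, ULK1, JUNB, WNT9A and CYP1B1. PHLDB1, which anchors microtubules near adhesions, had 17.7 and 20.7 CPM at 6 h and 7.38 and 6.86 CPM at 12 h in A549. In NCI-H596 it had 51.3 and 47.6 CPM at 6 h and 103 and 73.1 CPM at 12 h (log2 difference -2.26, SE 0.20, adjusted p = 2.60e-05). ULK1, the kinase that starts autophagy, had 273 and 366 CPM at 6 h and 163 and 127 CPM at 12 h in A549. In NCI-H596 it had 14.4 and 12.6 CPM at 6 h and 29.7 and 21.0 CPM at 12 h (log2 difference -2.08, SE 0.24, adjusted p = 1.28e-04), so it fell in A549, a call lost with only the 4 libraries, and rose in NCI-H596. WNT9A, a Wnt ligand, had 145 and 169 CPM at 6 h and 48.5 and 48.6 CPM at 12 h in A549. In NCI-H596 it had 15.9 and 19.3 CPM at 6 h and 22.7 and 19.0 CPM at 12 h (log2 difference -1.94, SE 0.22, adjusted p = 8.82e-05). The largest positive differences were those of CCN2, CD274, THBD, CHAC1 and RGS2. CCN2, a matricellular YAP target, was not called in A549, with 274 and 255 CPM at 6 h and 256 and 212 CPM at 12 h, and fell in NCI-H596, with 74.9 and 88.3 CPM at 6 h and 14.6 and 20.5 CPM at 12 h (log2 difference 2.07, SE 0.23, adjusted p = 1.02e-04). CD274, the immune checkpoint ligand PD-L1, had 19.0 and 18.8 CPM at 6 h and 27.7 and 24.8 CPM at 12 h in A549. In NCI-H596 it had 37.5 and 49.9 CPM at 6 h and 14.8 and 14.4 CPM at 12 h (log2 difference 2.07, SE 0.24, adjusted p = 1.28e-04). THBD, thrombomodulin, rose in A549 (log2 change 0.62, SE 0.11, adjusted p = 0.00198, at most 0.0517 without 1 of the 4 libraries) and fell in NCI-H596 (log2 change -1.39, SE 0.09, adjusted p = 1.58e-06).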

How the data were processed

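RNA-seq of 16 libraries (2 lines, 4 times, 2 biological duplicates) was available as a single table of gene-level read counts deposited by the authors, with 1 column per library and gene symbols paired with Ensembl identifiers. Its wt columns carry H549, and they were matched to the samples through the labels. According to the labels, RNA was extracted with RNeasy and polyA libraries were made with Illumina TruSeq. The submitters' processing notes name STAR 2.5.0, RSEM 1.3.2 and hg38. The study's methods describe adapter trimming and alignment with STAR. What RSEM was used for, which annotation was counted and whether strand was used are not given in the sources used here, so overlapping genes on opposite strands may share reads. The values are whole counts, not normalized by the authors. All columns were assigned.

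Genes with low counts were removed with filterByExpr (minimum count 10, minimum total 15), which kept 15067 of 42351 genes and 99.9581% of the counts. TMM factors scaled the libraries. The quasi-likelihood test of edgeR 4.0.16 (robust; limma 3.58.1, R 4.3.3) was fitted with 1 coefficient per line and time over all 16 libraries, which left 8 residual degrees of freedom and a common biological coefficient of variation of 0.0868. P-values were adjusted by the Benjamini-Hochberg method over all 15067 genes, and an adjusted p under 0.05 is called a change. CPM use TMM-scaled library sizes and are not divided by gene length, so levels are not compared between genes. SE is the standard error of the log2 fold change, derived as its absolute value divided by the square root of the test's F statistic. On simulated counts for A549 12 h against 6 h, 81% of 200 genes changed 2-fold among 14954 were recovered with 9 false calls. The simulation gave each gene the spread of the trend with expression, with none of its own. It changed only genes with a mean count of at least 10. These values are therefore not the power or error rate of the test on the real counts. Duplicates of A549 differed by more than sampling noise (chi-square over degrees of freedom 2.79 at 6 h and 3.82 at 12 h).

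Named genes were the 10 largest rises and falls whose log2 CPM averaged at least 3, key genes and the 3 largest called members of each of 25 lists, and the 5 largest differences between the lines in each direction. BUB3, ZFP36L2, DDIT3, KIFC1, ESPL1 and RAD51AP1 were singled out after their values were seen, as the sole movers of a list or for their promoters. Members and lists were chosen with earlier results of these data known. Lists are described by counts and medians only, and some members are not reported here. Gene coordinates are from a GENCODE annotation of GRCh38 and promoter windows from RefSeq (GRCh38.p14). Alternatives were DESeq2 (1.42.0) and its size factors, other filters, fits of fewer libraries, a replicate block and leaving out each library. Tables and plots were made in Python 3.11.15 with pandas 2.3.3 and matplotlib 3.10.9.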

Additional observations from a re-analysis of the deposited data

Results flagged for a closer look

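For 1865 genes the change from 6 to 12 h differed between A549 and NCI-H596 in the test of the difference itself, and the values below are log2 differences, A549 minus NCI-H596. Among the leading rises in A549 the difference was 1.31 for DPYSL2, 1.23 for AMER1, 1.07 for AK4, 1.43 for MOCOS, 1.27 for KLF11, 0.62 for LRIG3, 1.23 for THSD1, 1.05 for JAZF1 and 1.37 for DCAF4. Of these, LRIG3 and AK4 rose in both lines. Among the leading falls it was -1.88 for CYP1B1, -1.66 for FOSB, -1.16 for EGR1, -2.03 for NR4A3, -1.80 for SEMA7A, -1.97 for JUNB, -1.94 for NR4A1 and -1.66 for CLDN4. Where both lines averaged 3 or more on the log2 CPM scale, the 5 largest differences in either direction further included -2.26 for PHLDB1, -2.08 for ULK1, -1.94 for WNT9A, 2.07 for CCN2, 2.07 for CD274, 2.01 for THBD, 1.92 for CHAC1 and 1.89 for RGS2. Groups of 2 libraries are too small for a check of single outlying libraries.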

How the results depend on the processing

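Having 2 libraries per group limits the precision, and genes under the count filter were not tested. The number of genes changed from 6 to 12 h in A549 was 1743. It was 2801 with the A549 libraries alone, 4533 with only the 4 compared libraries, 283 at an absolute log2 fold change of at least 1, and 686 to 3182 without any 1 library. For NCI-H596, 2806 became 1422 with its own libraries alone, 425 at that size and 852 to 6434 without any 1 library. The 1865 differences became 534 at that size and 884 to 5145 without any 1 library. The 414 genes higher at 3 h and lower from 6 to 12 h became 745 with the A549 libraries alone, 57 at that size and 226 to 860 without any 1 library, and the 354 with the opposite course became 33 and 140 to 621. Replication genes called lower were 28 with only the 4 libraries and 10 to 27 without any 1 library, with a median of -0.41 to -0.34. The median of the immediate early factors was -0.71 with at least 10 counts in every library and -0.88 to -0.79 without any 1 library. The cause was not tested, apart from the fewer libraries and the stricter size that define these alternatives. Of 255 named genes, the 141 called kept their sign under the alternatives run, whereas some that were not called changed sign, such as MTAP, with a log2 fold change of -1.06 to 0.25 without any 1 library. Of those called, 84 stayed called in each of the 4 fits without 1 compared library and 57 lost the call in at least 1, with an adjusted p of at most 0.352. Replicate numbers did not pair the A549 libraries (correlation of the duplicates' differences at 6 and 12 h -0.0086 over 9638 genes). With the replicate number as a block, 1427 genes were called, 669 higher and 758 lower, and of the named genes 5 lost and 1 gained a call.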
